A study of Mus musculus with 22 samples.

Results

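The serine and folate enzymes described here are 9 genes, matched by symbol among the 46603 genes of the count table: Phgdh, Psat1, Psph, Shmt1, Mthfd1, Tyms, Shmt2, Mthfd2 and Mthfd1l. All 9 were among the 21183 genes with enough counts to be tested. RNA of mouse CD8+ T cells, the killer T cell class, was sequenced in 22 libraries from 8 mice. Magnetic removal of other cells from spleen and lymph node suspensions left naive CD8+ T cells, which were sequenced directly (naive, 0 h) or after 24 h or 48 h with plate-bound anti-CD3 and soluble anti-CD28, antibodies that trigger the T cell receptor and a costimulatory receptor. The labelled purpose was a comparison of conditional Tcaim mice. Mice labelled KI (line Tcaim KI Cd4Cre, genotype hocre) and wt (the same line, genotype wtcre) gave 3 libraries each at naive, 24 h and 48 h. Mice labelled KO (line Tcaim KO Cd4Cre, genotype hocre) gave 2 libraries each at naive and 48 h. All mice carry Cd4Cre by their labels, a Cre recombinase driven in developing T cells of both the CD4 and the CD8 class. The labels give no age. Each mouse is 1 replicate, numbered 1, 3 or 5 after its experiment, and no wt mice of the KO line were analysed here. Mice of experiments 1 and 3 were male and those of experiment 5 female, except that the KO mouse of experiment 1 was female.

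These enzymes supply activated carbon units for nucleotide synthesis, which dividing T cells are known to need. Phgdh, Psat1 and Psph make serine from a glycolytic intermediate in the cytosol. Shmt1 in the cytosol and Shmt2 in the mitochondrion split serine into glycine and a folate-bound carbon unit. In the mitochondrion Mthfd2 oxidises that unit and Mthfd1l releases it as formate, while cytosolic Mthfd1 captures formate and interconverts the folate forms. Tyms, thymidylate synthase, spends a folate-bound unit to make the thymine nucleotide of DNA.

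Total counts per library ran from 62551905 to 93489115. Tcaim, the targeted gene, was at 138 to 260 CPM (counts scaled to a common library total) in the KI libraries and at 8.38 to 15.2 CPM in the wt libraries. In the libraries labelled KO it was at 5.99 to 19.6 CPM, which overlapped wt, and where the deleted part lies in the gene was not given in the sources used here. The CD8 T cell markers Cd8a and Cd8b1 were high in all libraries, at 697 CPM or more for Cd8a. Both libraries of KO replicate 1 stood apart. Its naive library had 436 CPM summed over the B cell markers Ms4a1 and Cd79a, against 45.2 in KO replicate 5 and 86.3 to 163 in wt, and its Cd8a level was 853 CPM against 1504. Its 48 h library had 202 CPM summed over the CD4 T cell markers Cd4, Foxp3 and Zbtb7b, against 30.7 in KO replicate 5 and 32.2 to 61.5 in wt, and its naive library 264 CPM against 38.5 and 50.1 to 85.7. No marker of these lists was at 0 in any library. The part of these markers in the KO results was not tested, and the comparisons and ratios that rest on KO libraries are given below by library or also without KO replicate 1.

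All 9 enzymes rose on stimulation in every genotype. For each of them the lowest of the 14 stimulated libraries lay above the highest of the 8 naive libraries, by a factor of 1.50 for Mthfd1 to 6.93 for Tyms. The share of all tested genes that separate in this way was not counted, so these values cannot show whether it is particular to the 9. In wt cells at 48 h against naive, 9 of 9 were called higher by edgeR's quasi-likelihood test at an adjusted p under 0.05, where 29.5% of tested genes were called higher and 26.8% lower. The same 9 of 9 were called in wt at 24 h (26.3% of tested genes higher, 22% lower), in KI at 24 h (22.9% and 15.8%), in KI at 48 h (26.6% and 22.1%) and in the libraries labelled KO at 48 h (23.6% and 20.4%), there also without KO replicate 1. The median log2 fold change of the 9 in wt at 48 h was 2.43, against -0.04 over all tested genes. Bulk RNA cannot tell fewer cells of a type from less RNA per cell, and CPM are shares of a library, so total RNA per cell is outside these values. Markers of other cells fell over the same interval: in wt the summed B cell markers went from 86.3 to 163 CPM in naive libraries to 10.5 to 37.2 at 48 h, the myeloid markers Lyz2, Csf1r and Itgam from 85.7 to 206 to 13.3 to 21.9, and the NK cell markers Ncr1 and Klrb1c from 11.8 to 38.4 to 0.0358 to 0.201. Their part in the rise was not tested. With upper-quartile scaling the median of all genes in wt at 48 h moved to -0.26 and the share of calls that were higher fell from 52.5% to 41.7%, and all 9 enzymes were still called higher. The same scaling moved that share from 54.5% to 42.6% in wt at 24 h, from 59.2% to 44.9% and from 54.6% to 42.9% in KI at 24 h and 48 h, and from 53.7% to 43.1% in the libraries labelled KO, where the 9 calls also stood. Fitted on the 4 libraries labelled KO alone, Psph, Shmt1 and Mthfd1 lost their call at 48 h, with adjusted p of 0.0515, 0.122 and 0.127.

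**Figure D1:**
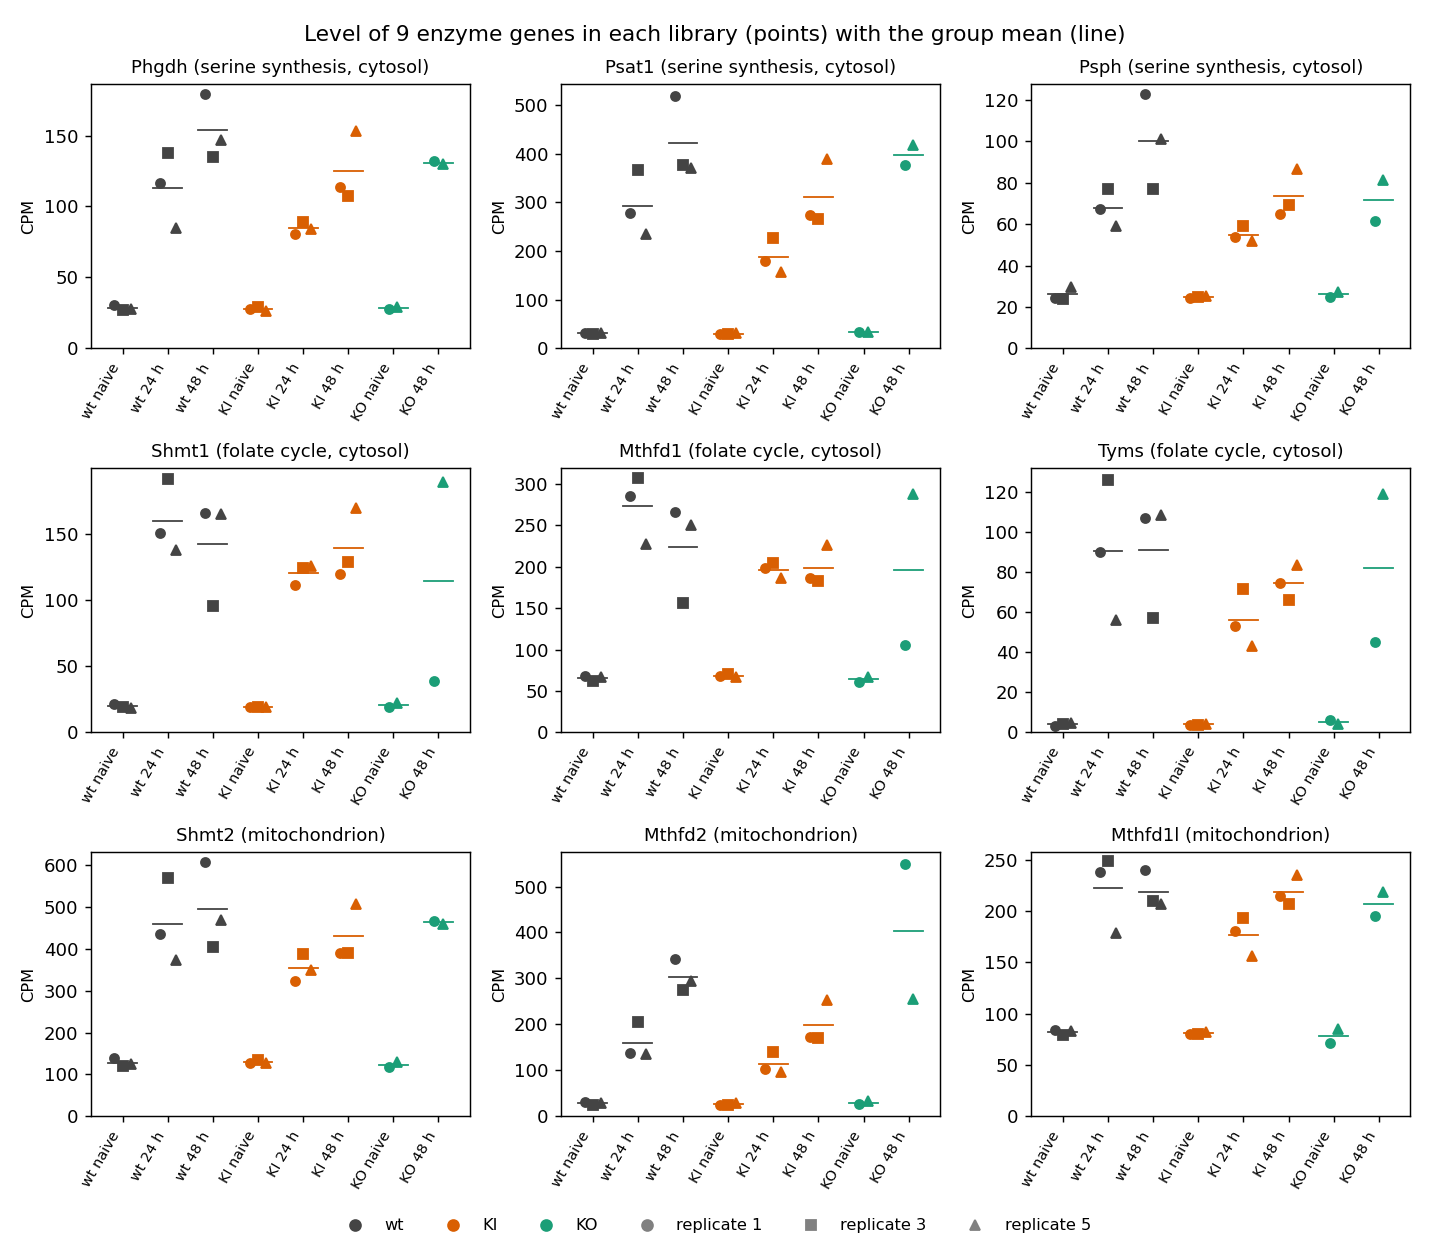
Level of each enzyme gene in CPM (vertical axis, from 0) in the 22 libraries (points, shaped by replicate) of 8 groups (horizontal axis), with the group mean as a line. Every stimulated library lies above every naive library, and the 48 h library of KO replicate 1 is low for Shmt1 (38.8 CPM) and high for Mthfd2 (549.6 CPM).

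The serine synthesis enzymes rose by 48 h in the order Psat1, Phgdh, Psph. Phgdh, which catalyses the first and committed step, lies at chr3:98313170-98339990 on the minus strand of GRCm38. It was at 30.9, 27.2 and 27.4 CPM in naive wt replicates 1, 3 and 5, at 117, 138 and 84.5 CPM at 24 h and at 179, 135 and 147 CPM at 48 h. The 24 h and 48 h libraries overlapped. From naive to 48 h the log2 fold change came to 2.43, with an SE of 0.16 and an adjusted p of 1.02e-09. Psat1, the transaminase of the second step, lies at chr19:15904678-15947337, minus strand. Its naive wt level of 31.2, 29.7 and 31.8 CPM became 278, 366 and 234 CPM at 24 h and 520, 377 and 371 CPM at 48 h, so each 48 h library lay above all 24 h libraries of that genotype. With a log2 fold change of 3.77 at 48 h, an SE of 0.20 and an adjusted p of 8.99e-11, Psat1 ranked 29 by p among all tested genes in that comparison. Psph, the phosphatase that releases serine, lies at chr5:129765558-129787449, minus strand. It had 24.5, 24.0 and 29.6 CPM in naive wt cells, 67.6, 76.8 and 58.9 CPM at 24 h and 123, 76.8 and 101 CPM at 48 h. Replicate 3 was the only wt mouse without a further increase of Psph after 24 h. Its log2 fold change at 48 h was 1.95 (SE 0.17, adjusted p 2.08e-08).

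The Phgdh count carries a limit of its own. A search of the GENCODE transcripts found 21 near-identical copies of Phgdh, at 85% identity or more over at least 25% of the transcript. Of these, 8 had counts in the deposited table, which together came to 149% of the counts of Phgdh itself. The processed pseudogene Gm7901, 98.7% identical, held most of them, at 144%. Reads of such copies may have been split or shared, so the level of Phgdh is uncertain, while its change was nearly the same with the copies added (log2 fold change 2.46 in wt at 48 h). Copies of Psat1 (Gm12611, 6.45% of its counts) and Shmt2 (Gm15544, 4.2%) were small beside their genes. Exons of Psph, Shmt1, Mthfd1 and Shmt2 overlap an exon of a gene on the opposite strand (Cct6a, Smcr8, Gm47525 and Ndufa4l2). The library kit was stranded by the labels, but whether counting used strand was not given in the sources used here.

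The cytosolic folate enzymes held the largest rise of the 9. Tyms, at chr5:30058202-30073617 on the minus strand, was the lowest of them in naive cells and rose most in every comparison with naive cells. It went from 3.18, 3.92 and 4.62 CPM in naive wt libraries to 90.1, 126 and 55.9 CPM at 24 h and 107, 57.0 and 109 CPM at 48 h. The log2 fold change was 4.54 at both times (SE 0.38; adjusted p 2.57e-08 at 24 h and 1.53e-08 at 48 h), a 23.2-fold rise at 24 h. Shmt1, at chr11:60788104-60811718 on the minus strand, had 21.2, 19.4 and 18.4 CPM in naive wt cells, 151, 191 and 138 CPM at 24 h and 166, 95.3 and 165 CPM at 48 h. Replicate 3 had the highest Shmt1 level of the wt libraries at 24 h and the lowest at 48 h. The log2 fold change was 3.02 at 24 h (SE 0.37) and 2.85 at 48 h (SE 0.37), with adjusted p of 2.33e-06 and 2.93e-06. Mthfd1, at chr12:76255298-76319803 on the plus strand, followed the same course at a higher level. It was at 68.1, 61.9 and 67.4 CPM in naive wt cells, 285, 308 and 227 CPM at 24 h and 266, 157 and 250 CPM at 48 h. Its log2 fold changes were 2.06 (SE 0.26) and 1.77 (SE 0.25), with adjusted p of 2.90e-06 and 1.02e-05.

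Among the mitochondrial enzymes Mthfd2 had the largest fold change. It lies at chr6:83305691-83325908 on the minus strand. Mthfd2 was at 30.7, 25.7 and 29.0 CPM in naive wt libraries, at 138, 205 and 135 CPM at 24 h and at 343, 274 and 294 CPM at 48 h, and the 3 times did not overlap. Its log2 fold change at 24 h was 2.48, with an SE of 0.25 and an adjusted p of 2.15e-07. At 48 h it was 3.42 (SE 0.26, adjusted p 3.90e-09), or 10.7-fold. Shmt2, at chr10:127517123-127522444 on the minus strand, was the most abundant of the 9. It had 139, 119 and 125 CPM in naive wt cells, 435, 571 and 374 CPM at 24 h and 608, 406 and 469 CPM at 48 h, with log2 fold changes of 1.85 (SE 0.16, adjusted p 4.74e-08) and 1.95 (SE 0.16, adjusted p 1.52e-08). Mthfd1l, at chr10:3973118-4167081 on the plus strand, had the smallest change at 48 h. Its naive wt level of 83.7, 79.1 and 82.9 CPM became 238, 249 and 179 CPM at 24 h and 240, 210 and 206 CPM at 48 h. These log2 fold changes were 1.44 (SE 0.13, adjusted p 4.12e-08) and 1.42 (SE 0.13, adjusted p 2.95e-08).

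**Figure D2:**
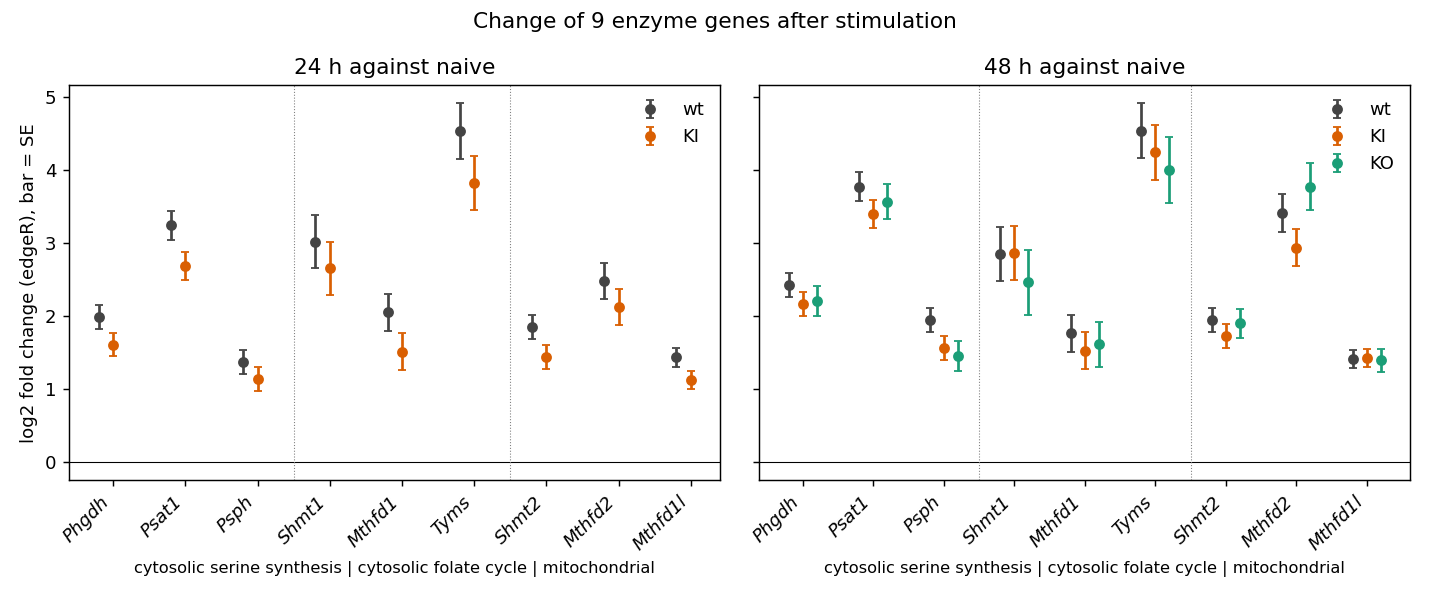
Log2 fold change against naive cells (vertical axis, bars are SE) of each enzyme gene (horizontal axis, ordered by role) at 24 h and at 48 h in wt, KI and, at 48 h only, the libraries labelled KO. All values lie above 0, from 1.13 for Mthfd1l in KI at 24 h to 4.54 for Tyms in wt at 48 h.

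The changes did not sort by compartment. In wt at 48 h the median log2 fold change was 1.95 over the 3 mitochondrial enzymes, 2.85 over the 3 of the cytosolic folate cycle and 2.43 over the 3 of serine synthesis. Within each set of 3 the values spread widely, from 1.42 to 3.42 in the mitochondrial set and from 1.77 to 4.54 in the cytosolic folate set. On the length-corrected scale (FPKM, which allows levels of different genes to be compared), naive wt cells had Shmt2 first at 65.8 ± 4.9 (SD, n = 3), then Mthfd1 at 23.5 and Mthfd1l at 21.9. Phgdh, Mthfd2, Psat1, Psph and Shmt1 followed between 13.6 and 6.02 FPKM and Tyms was last at 0.763, and no neighbours in this order overlapped over the 3 libraries. In wt cells at 48 h Shmt2 was still first at 240 FPKM without overlap. Behind it came Psat1 at 111, Mthfd2 at 97.4, Mthfd1 at 75.5, Phgdh at 69.1 and Mthfd1l at 55.1 FPKM, each overlapping the next of these 5 in its range. Shmt1 at 40.9 FPKM lay below Mthfd1l without overlap, and Shmt1, Psph at 25.9 and Tyms at 16.7 FPKM each overlapped the next. The place of Phgdh in both orders is uncertain, since its near-identical copies were left out of its level. With the copies added, naive wt replicates 1, 3 and 5 had 70.7, 66.3 and 71.1 CPM, against 30.9, 27.2 and 27.4 CPM without.

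The RNA ratio of mitochondrial to cytosolic enzyme genes moved in opposite directions at the serine-splitting step and the dehydrogenase step. For the serine-splitting pair, the ratio of Shmt2 to Shmt1 in FPKM lay between 9.90 and 11.7 in the 8 naive libraries and between 4.57 and 5.27 in the 6 libraries at 24 h. The 24 h libraries were all below the naive ones. Within mice the log2 ratio fell by 1.20 on average (SD 0.10), lower in 6 of 6 mice, with an exact two-sided paired permutation p of 0.03125, the smallest that 6 mice allow, and 0.0375 after Benjamini-Hochberg adjustment over the 6 ratio tests. At 48 h the ratio lay between 4.10 and 7.17 in 7 libraries and at 20.3 in KO replicate 1. The mean log2 change at 48 h was -0.79 (SD 0.76), lower in 7 of 8 mice (exact permutation p 0.03125, adjusted 0.0375), and -1.04 without KO replicate 1. Shmt1 had thus risen by a larger factor than Shmt2 at 48 h in all mice but that one.

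At the dehydrogenase step the mitochondrial gene gained. The ratio of Mthfd2 to Mthfd1 in FPKM was 0.342 to 0.464 in naive libraries, 0.460 to 0.656 at 24 h and 0.845 to 4.98 at 48 h. The 48 h libraries did not overlap the others. The log2 ratio rose by 0.50 on average at 24 h (SD 0.29), in 6 of 6 mice (exact permutation p 0.03125, adjusted 0.0375), and by 1.71 at 48 h (SD 0.83), in 8 of 8 mice (exact permutation p 0.0078125, the smallest possible, adjusted 0.0375). Without KO replicate 1, where the ratio was 4.98, the mean change at 48 h was 1.44. In wt replicates 1, 3 and 5 the 48 h ratios were 1.23, 1.67 and 1.12, so Mthfd2 passed Mthfd1 per length in each. For Mthfd1l, the gene of the formate-releasing enzyme, the ratio to Mthfd1 moved otherwise. It went from 0.855 to 0.958 in naive libraries to 0.590 to 0.708 at 24 h. The mean log2 change was -0.51 (SD 0.16), lower in 6 of 6 mice (exact permutation p 0.03125, adjusted 0.0375). By 48 h the ratio ranged from 0.569 to 1.39. Its mean log2 change of -0.17 (SD 0.44) did not pass (lower in 6 of 8 mice, exact permutation p 0.320). Without KO replicate 1 the mean was -0.28 (exact permutation, adjusted p 0.0781), and without KO replicate 5 it was -0.08.

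**Figure D3:**
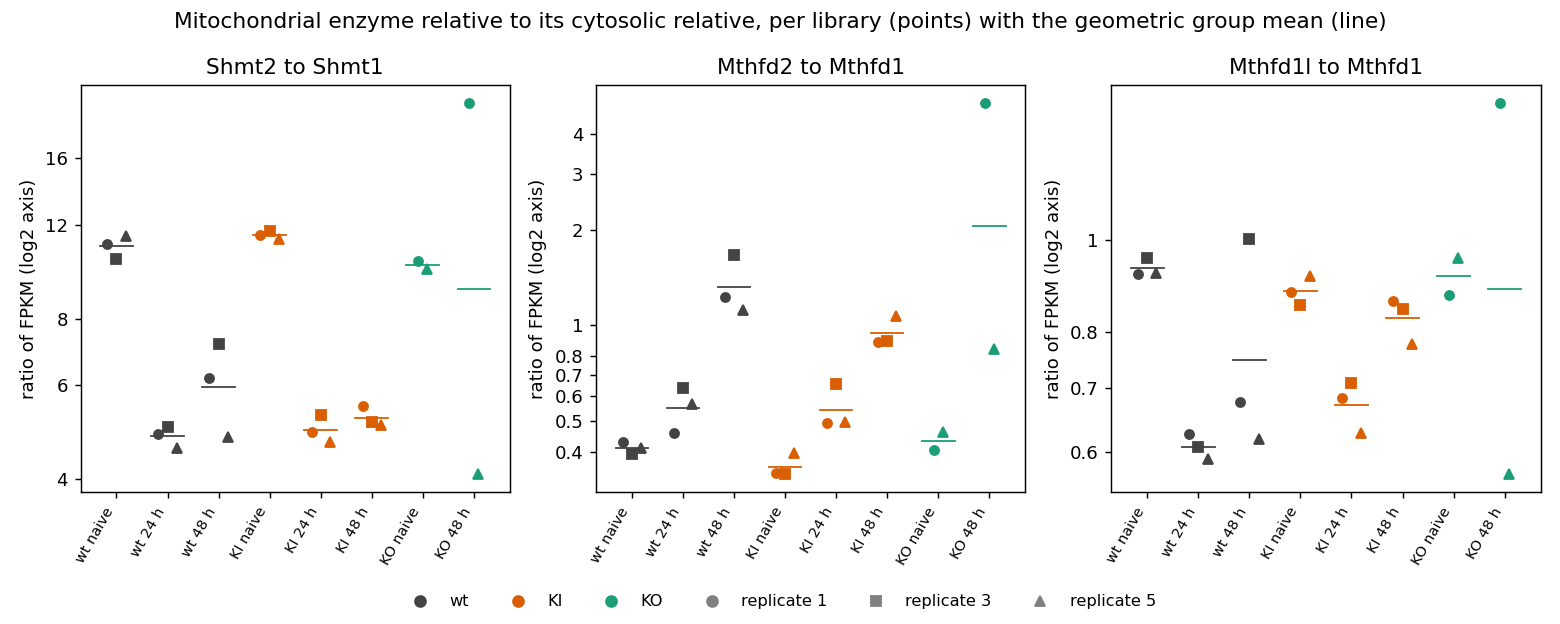
Ratio of the FPKM of a mitochondrial enzyme gene to that of its cytosolic relative (vertical log2 axis) in each library (points) of 8 groups, with the geometric group mean as a line. Shmt2 to Shmt1 drops from about the naive range of 9.90 to 11.7, Mthfd2 to Mthfd1 climbs to 0.845 or more at 48 h, and the 48 h library of KO replicate 1 is the highest point of all 3 panels.

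Between 24 h and 48 h few of the enzymes changed further. In wt, Mthfd2 (log2 fold change 0.93, SE 0.24, adjusted p 0.0209) and Psph (0.57, SE 0.16, adjusted p 0.0386) were called higher, 2 of 9 where 4.08% of tested genes were called higher and 3.41% lower. In KI, Psat1 was the 1 call (0.72, SE 0.18, adjusted p 0.0356), where 1.71% were called higher and 0.968% lower, and Mthfd2 stood at 0.82 (SE 0.24, adjusted p 0.0722). Whether these changes differ between KI and wt was not tested. The calls of this interval were not stable. With the mouse as a replicate block, Psph in wt had an adjusted p of 0.0527 and Psat1 in KI of 0.0515. Mthfd2 in wt lost its call without wt replicate 1 (adjusted p 0.310) and without wt replicate 5 (0.165), as did Psph (0.427 and 0.244), while Psat1 in KI lost it without KI replicate 1 (0.226) or 5 (0.761). The calls over all genes moved too: in wt they went from 7.49% of tested genes to 0.636% without replicate 1 and 2.51% without replicate 5, and in KI from 2.68% to 0% without either replicate 1 or 5. Without wt replicate 3, Phgdh and Psat1 were also called in wt, at adjusted p of 0.0266 and 0.0291.

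No enzyme was called different between KI and wt by the edgeR test, in naive cells, at 24 h or at 48 h. These were 0 of 9 calls each, where 0.113%, 0.00472% and 4.17% of tested genes were called in either direction. DESeq2 and limma also called 0 of 9 at each time. At an unadjusted p under 0.05 there were 0, 5 and 3 of the 9, against 2.05%, 8.98% and 17.9% of all tested genes. In naive cells the 9 log2 differences, KI minus wt, lay between -0.13 and 0.06. At 24 h the 9 differences were all negative, from -0.31 for Psph (SE 0.16) to -0.70 for Tyms (SE 0.33), with a median of -0.41 against 0.01 over all tested genes. Each enzyme was lower in KI than in wt in 3 of 3 experiments at 24 h, by -0.01 for Phgdh in experiment 5 to -0.82 for Tyms in experiment 3. The smallest adjusted p among them was 0.394, for Psat1 at -0.64 (SE 0.18). Tested genes lower in KI in 3 of 3 experiments at 24 h were not counted over the whole table. The 9 enzymes are also not independent, as their pairs had a median Pearson r of 0.70 over the stimulated libraries. The summed B cell markers were higher in KI than in wt in 3 of 3 experiments, at 21.6, 24.9 and 64.8 CPM in KI replicates 1, 3 and 5 and 17.8, 22.4 and 49.2 in wt at 24 h, and at 33.3, 31.8 and 80.7 against 10.5, 14.6 and 37.2 at 48 h. The summed CD4 T cell and myeloid markers overlapped between KI and wt at both times, and the NK cell markers were at 1.19 CPM or less in each of these libraries. The part of these markers in the KI differences was not tested.

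Single libraries at 24 h show the size of that shift beside the spread. Psat1 was at 180, 228 and 158 CPM in KI replicates 1, 3 and 5 and at 278, 366 and 234 CPM in wt, without overlap. Shmt1 was at 111, 124 and 125 CPM in KI against 151, 191 and 138 CPM in wt, also without overlap. Mthfd1 was at 198, 204 and 187 CPM in KI against 285, 308 and 227 CPM in wt. Tyms, at 53.1, 71.5 and 43.1 CPM in KI against 90.1, 126 and 55.9 CPM in wt, overlapped, and experiment 5 was the lowest of both genotypes. The ratios between compartments at 24 h were alike in range: Shmt2 to Shmt1 was 4.70 to 5.27 in KI and 4.57 to 5.02 in wt, and Mthfd2 to Mthfd1 was 0.492 to 0.656 and 0.460 to 0.635.

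At 48 h the KI difference was nearer 0 than at 24 h for every enzyme but Mthfd2 and Psph. The change from 24 h to 48 h was not tested. Phgdh went from -0.41 to -0.30, Psat1 from -0.64 to -0.45 and Shmt2 from -0.38 to -0.20. Mthfd2 went from -0.49 to -0.61 and Psph from -0.31 to -0.45. Shmt1 stood at -0.03 (SE 0.34), Mthfd1 at -0.18 (SE 0.25), Tyms at -0.28 (SE 0.33) and Mthfd1l at -0.00 (SE 0.12), KI minus wt on the log2 scale. The largest differences were those of Mthfd2 at -0.61 (SE 0.23, adjusted p 0.168), Psat1 at -0.45 (SE 0.18, adjusted p 0.183) and Psph at -0.45 (SE 0.16, adjusted p 0.137). Mthfd2 was at 174, 171 and 254 CPM in KI replicates 1, 3 and 5 and at 343, 274 and 294 CPM in wt, without overlap, and lower in KI in 3 of 3 experiments by -0.98, -0.68 and -0.21. Psph was also lower in 3 of 3 experiments, by -0.92, -0.15 and -0.22, and without wt replicate 3 it was called (log2 difference -0.60, adjusted p 0.0301). The ratio of Mthfd2 to Mthfd1 was 0.890, 0.895 and 1.07 in KI at 48 h against 1.23, 1.67 and 1.12 in wt, lower in 3 of 3 experiments and without overlap. In naive cells it was also lower in KI in 3 of 3 experiments, at 0.344, 0.342 and 0.398 against 0.430, 0.396 and 0.411, where the ranges overlapped. With 3 against 3 mice an exact permutation test cannot go below 0.10, so these ratios are given as values.

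The test of whether the response to stimulation differed between KI and wt, in either direction, called 0 of 9 at 24 h, where 0% of tested genes were called. At 48 h it called 0 of 9, where 0.387% were called. DESeq2 and limma called 0 of 9 as well, and at an unadjusted p under 0.05 there was 1 of the 9 (Psat1) at 24 h and 0 at 48 h. The median of these 9 differences of log2 fold changes was -0.37 at 24 h and -0.26 at 48 h, against 0.02 and -0.00 over all tested genes. Naive libraries hardly differed, so these values repeat those of the stimulated libraries.

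**Figure D4:**
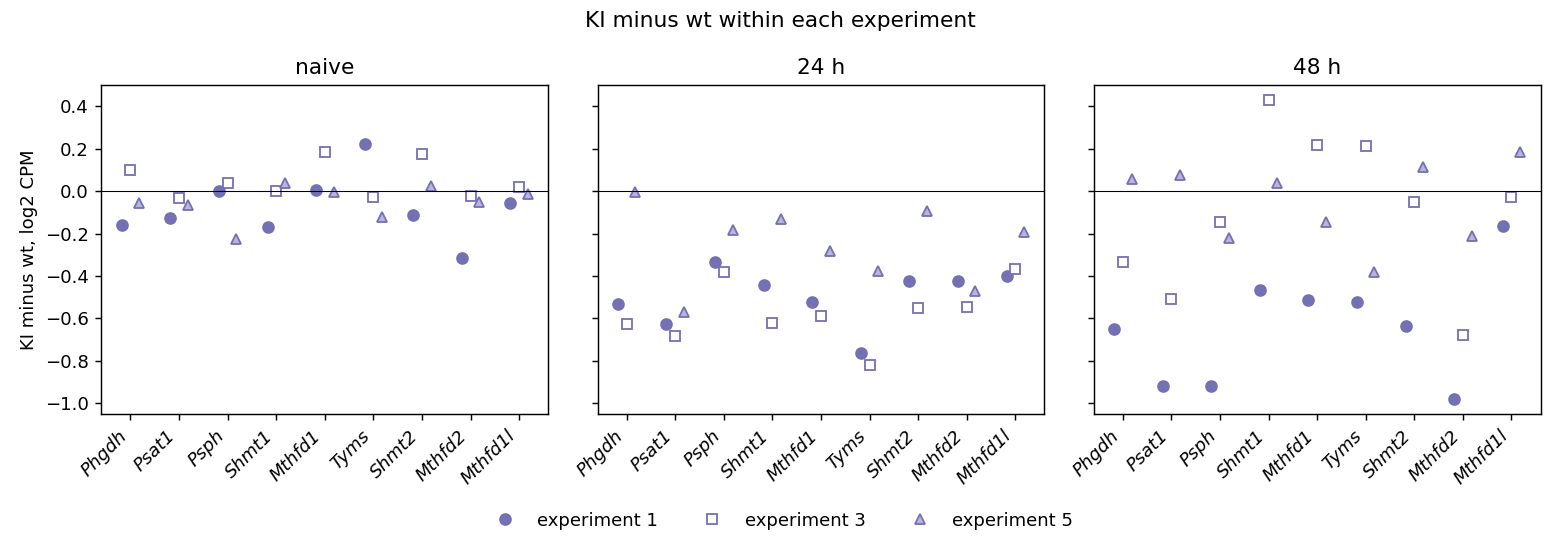
Difference in log2 CPM, KI minus wt (vertical axis), of each enzyme gene (horizontal axis) within each of 3 experiments (symbols), in naive cells, at 24 h and at 48 h. At 24 h all points lie below 0, between -0.01 and -0.82, while at 48 h Mthfd2 and Psph are the enzymes below 0 in all 3 experiments.

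The libraries labelled KO were not called different from wt for any enzyme, 0 of 9 in naive cells (0.0236% of tested genes called) and 0 of 9 at 48 h (0.0283%). DESeq2 and limma called 0 of 9 too, and at an unadjusted p under 0.05 there were 0 and 1 (Psph, -0.49, SE 0.18, adjusted p 0.676). The test of a different response to stimulation called 0 of 9, where 0% of tested genes were called, and none had an unadjusted p under 0.05. Without KO replicate 1 it also called 0 of 9, and the differences of Shmt1, Mthfd1, Tyms and Mthfd2 changed sign, from -0.39, -0.15, -0.54 and 0.36 to 0.26, 0.34, 0.36 and -0.44. These group values average a pair of unlike libraries. At 48 h Shmt1 was at 38.8 CPM in KO replicate 1 and at 189 in replicate 5, Mthfd1 at 105 and 288, Tyms at 45.2 and 119, and Mthfd2 at 550 and 256 CPM. Shmt2 (466 and 461 CPM), Phgdh (132 and 130 CPM) and Mthfd1l (195 and 219 CPM) were close. With KO replicate 5 left out, 21.5% of all tested genes were called against wt at 48 h, and 4 of the 9 enzymes: Shmt1 lower (-1.87, adjusted p 0.000421), Mthfd1 lower (-1.10, adjusted p 0.00345), Psph lower (-0.70, adjusted p 0.0330) and Mthfd2 higher (0.85, adjusted p 0.0190). That fit leaves 1 KO mouse, assumed to vary like the other groups. With KO replicate 1 left out, 0 of 9 were called (0.0319% of tested genes), and Shmt1 (0.42), Mthfd1 (0.36), Tyms (0.39) and Mthfd2 (-0.25) changed sign from -0.31, -0.19, -0.15 and 0.41.

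The 48 h library of KO replicate 1 differed from the others in further genes, named after their values were seen. Of the 14 genes in the list of regulators and amino acid response genes, 7 had their highest level of all 22 libraries there: Asns (asparagine synthetase, 217 CPM), Atf4 (a transcription factor of the amino acid response, 645 CPM), Atf5 (43.9 CPM), Ddit3 (164 CPM), Trib3 (68.7 CPM), Pycr1 (40.8 CPM) and Slc3a2 (502 CPM). The other 7 did not, among them Chac1 (5.27 CPM against 9.67 in wt replicate 1 at 48 h), Sesn2 (23.3 against 31.2) and Slc7a11 (0.507 CPM, rank 12 of 22). The mitochondrial folate enzyme Aldh1l2 was also highest there, at 19.7 CPM. How many of all tested genes had their highest level in that library was not counted, so 7 of 14 has no background beside it. The wt library of replicate 3 at 48 h came next for Asns, at 165 CPM, and it had the second highest ratio of Mthfd2 to Mthfd1, at 1.67. Over the 14 stimulated libraries the log2 ratio of Mthfd2 to Mthfd1 had a Pearson r of 0.94 with Slc3a2, 0.93 with Atf4, 0.88 with Trib3 and 0.85 with Asns. Without the KO replicate 1 library, over 13 libraries, these were 0.84, 0.90, 0.90 and 0.86. Other genes of that list moved more when it was left out: Ddit3 went from 0.89 to 0.68, Pycr1 from 0.85 to 0.66, Atf5 from 0.72 to 0.38, Sesn2 from 0.72 to 0.95 and Myc from 0.27 to 0.66, while Slc7a11 was at -0.09 and 0.23. These are descriptions: the libraries share time, mouse and scaling, the ratio was chosen with its values known, and no test was made.

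**Figure D5:**
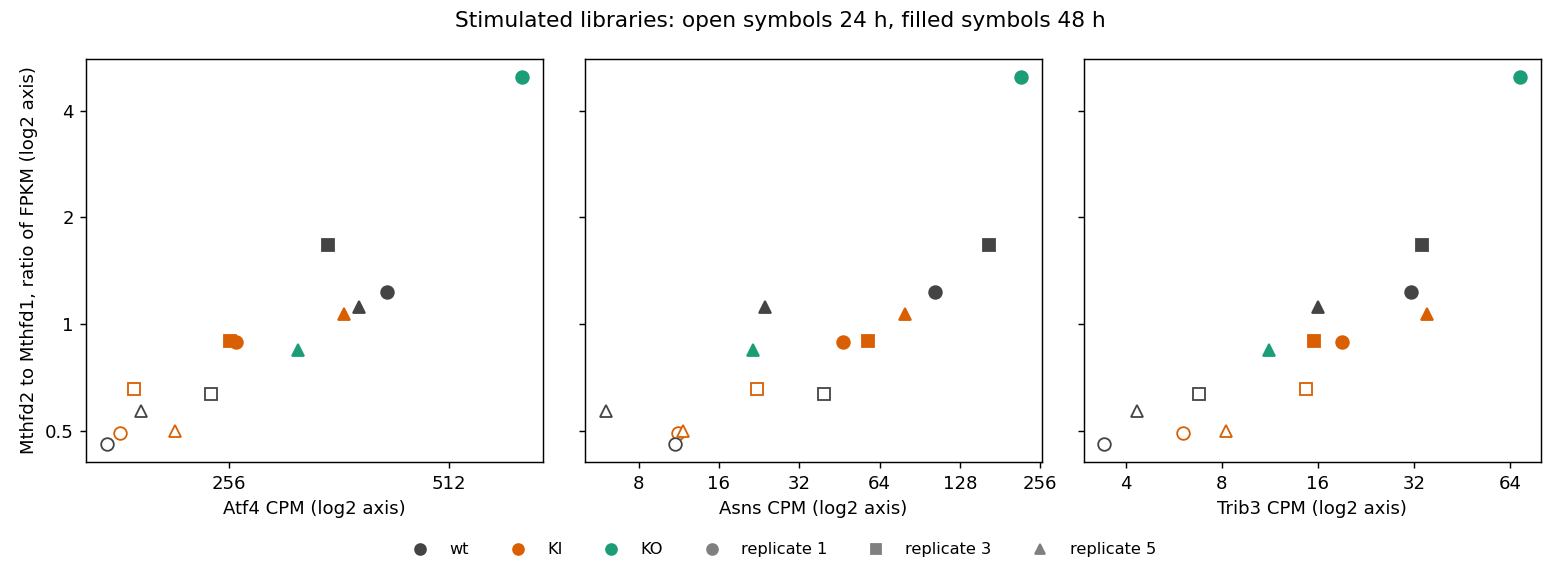
Ratio of Mthfd2 to Mthfd1 in FPKM (vertical log2 axis) against the CPM of Atf4, Asns and Trib3 (horizontal log2 axes) in the 14 stimulated libraries (points, open at 24 h and filled at 48 h). The KO replicate 1 library is at the top in each panel, with a ratio of 4.98, and the highest Atf4 (645 CPM), Asns (217 CPM) and Trib3 (68.7 CPM).

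Across the stimulated libraries most pairs of enzymes varied together, and the pairs with a negative r were no longer negative with 1 library left out. Over these 14 libraries log2 CPM of Phgdh and Psat1 had a Pearson r of 0.95, Phgdh and Shmt2 of 0.90, and Psat1 and Mthfd2 of 0.87. Shmt1 and Mthfd1 had an r of 0.94 with each other, but of -0.33 and -0.26 with Mthfd2 and of 0.16 and 0.20 with Phgdh. Tyms had an r of 0.81 with Mthfd1, 0.80 with Mthfd1l and 0.72 with Shmt2, and Mthfd2 one of 0.47 with Mthfd1l. Without the 48 h library of KO replicate 1, over 13 libraries, Shmt1 and Mthfd1 had an r of 0.44 and 0.29 with Mthfd2 and of 0.54 and 0.43 with Phgdh, and all 36 pairs lay between 0.29 and 0.96. Over all 22 libraries, where the step from naive to stimulated dominates, pairs had an r from 0.83 up to 0.99. Both sets of values rest on the same mice and time points and carry no p.

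The genes most like each enzyme over the 22 libraries, by Pearson r of log2 CPM, were as follows. For Phgdh they were its copy Gm7901 (0.998), Atp5b (0.996) and Psat1 (0.995), and for Psat1 they were Nxn (0.997), Gm7901 (0.996) and its own copy Gm12611 (0.996). Psph was closest to Gm14270, Nup37 and Uba2 (0.988 to 0.989). Shmt1 was closest to Fen1, which processes DNA flaps in replication (0.995), Gm10143 and Eif5al3-ps. Tyms was close to Exo1 (0.997), a nuclease of DNA repair, and Tcf19 (0.996). Mthfd1 was closest to Psmd1 (0.995), Nup93 (0.994) and Eif3b (0.993). Shmt2 was closest to its copy Gm15544 (0.997), Atp5b (0.994) and Rcc2 (0.993). For Mthfd2 they were Gm9892 (0.996), Gars (0.992), the glycyl-tRNA synthetase, and Gm7488 (0.991). Mthfd1l was closest to Got2 (0.994), the mitochondrial aspartate transaminase, Gm10874 (0.994) and Got2-ps1 (0.993). Many genes step up with stimulation, so values this high separate few of them.

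Because the 9 rose together, their upstream sequences were searched for 4 motifs in the 250 bases before each RefSeq start (GRCm38.p6), which gave 10 promoters, Psat1 having 2. The E-box CACGTG, which Myc-family factors can bind, was in 1 of 10 (Tyms), against 6.02% of 32851 promoters. TGATGNAA, a form of the amino acid response element, was in 0 of 10, against 3.45%. TTTNNCGC, an E2F form, was in 1 of 10 (Psph), against 4.28%, and CCAAT was in 6 of 10 (Phgdh, Psat1, Psph, Shmt1, Mthfd1 and Mthfd2), against 33.8%. Both strands were searched, and a match is a description of letters only. Windows of up to 30 bases are shown, 5′ to 3′ along the gene's strand with the motif in capitals. ATTGG is CCAAT on the other strand. Shown are the Tyms E-box and CCAAT matches of 4 enzymes whose levels the ratios turn on or that rose most. Left out are a further CCAAT match of Psat1, 6 bases before its start, and of Mthfd2, 47 bases before its start. The starts used for the Psat1, Shmt1 and Mthfd2 windows (15925059, 60811265 and 83317604) lie inside the gene spans given above.
Tyms chr5:30073669-30073698 minus: aaccacttctgtCACGTGggggcggggtct
Psat1 chr19:15925079-15925107 minus: tagtgagcgtggCCAATagggaggggagc
Shmt1 chr11:60811296-60811324 minus: atgctcccactgATTGGgccgctgtaggg
Mthfd1 chr12:76255151-76255179 plus: acactatctctgATTGGctaaaagcgagg
Mthfd2 chr6:83317684-83317712 minus: tgactccttcagCCAATcaggacctgctc
Mthfd2 chr6:83317610-83317638 minus: ccggctcaggggCCAATgggcgcgcggga
The CCAAT letters were thus in both members of the Mthfd2 to Mthfd1 pair, and in Shmt1 but not Shmt2 of the other pair.

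Among neighbouring steps of the pathway, calls in wt at 48 h went in both directions; over all tested genes 29.5% were called higher and 26.8% lower. Of 14 tested genes of serine and glycine handling, 9 were called higher and 3 lower. Dld (log2 fold change 1.25), Sfxn1 (1.65), a mitochondrial serine carrier, and Slc1a4 (4.13), a plasma membrane transporter of serine, rose. Sfxn3 (-1.58), Sds (-1.66), which degrades serine, and Slc38a2 (-0.47) fell. Folate uptake and interconversion had 4 called higher and 1 lower of 14, with the reduced folate carrier Slc19a1 (1.99) and Aldh1l2 (4.57) among the higher and Ggh (-0.58) lower. Most genes of that list were not called, and 4 of 14 is near the share of all tested genes called higher.

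Most nucleotide synthesis genes were called higher, beside the same 29.5% of all tested genes called higher and 26.8% lower. In purine synthesis 11 of 13 were called higher and 0 lower, with Paics (2.04), Gmps (1.85) and Adsl (1.42) the smallest in p. In pyrimidine and deoxynucleotide synthesis 12 of 14 were called higher and 2 lower, with the ribonucleotide reductase subunits Rrm1 (3.88) and Rrm2 (6.02) and Ctps (2.39) higher and Rrm2b (-0.97) and Ctps2 (-0.69) lower. The methionine cycle and transsulfuration list had 6 higher and 2 lower of 10, with Ahcy (2.13), Ahcyl1 (1.03) and Cth (6.87) higher and Mat2b (-0.44) and Gnmt (-1.62) lower. Of 14 regulators and amino acid response genes, 11 were called higher and 1 lower, with the amino acid transporter Slc7a5 (2.59), Aldh18a1 (1.73) and Sesn2 (2.04) higher and Cebpb (-0.90) lower. Their medians were 0.97, 0.37, 1.42, 1.84, 0.56 and 1.89 on the log2 scale in the order of these 6 lists, against 2.43 for the 9 enzymes and -0.04 over all tested genes. In KI against wt at 48 h, where 4.17% of all tested genes were called, 1 gene of the 6 lists was, which is no more than that background. It was Aldh18a1, which makes a proline precursor, at a log2 difference of -0.61 (SE 0.17, adjusted p 0.0480). In the interaction at 48 h none was called.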

How the data were processed

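The deposited counts, whole numbers of reads per gene in 22 libraries, were made by the authors with TopHat2 2.1.0, Bowtie2 2.2.5 and featureCounts on GRCm38, per the submitters' processing notes. The authors' deposited log2 table equalled log2 of the normalized count plus 1, and in the authors' deposited FPKM each gene's normalized count was divided by a fixed length. A further deposited log2 table of variance-stabilised values served limma as an alternative. Members and lists were chosen with earlier results of these data known.

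Counts were filtered with filterByExpr (minimum count 10, total 15), scaled by TMM, and 8 group means were fitted with robust moderation in edgeR 4.0.16 (R 4.3.3), with 14 residual degrees of freedom. Quasi-likelihood F tests were Benjamini-Hochberg adjusted over all 21183 tested genes; the threshold for a call was an adjusted p under 0.05. The choice of robust moderation was made after seeing both fits. The fits were tested on simulated data. CPM are counts divided by the TMM-scaled library total. DESeq2 1.42.0 and limma 3.58.1 were alternatives, as were other scalings, blocks and omitted mice.

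The 9 members were named in all comparisons. From the lists, up to 3 called genes per direction by smallest p were named in wt at 48 h, and all called ones in KI against wt and the interaction at 48 h; some genes under these rules are not reported here. The labels pair libraries by mouse and experiment: deviations from the group mean correlated above 0.1 in 8 of 9 KI and wt pairs of an experiment (median r 0.22) and in 19 of 20 pairs of a mouse (median r 0.16). No replicates were duplicates (the smallest chi-square per degree of freedom was 12.0).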

Additional observations from a re-analysis of the deposited data

How the results depend on the processing

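Of 1890 values of the 9 enzymes under alternatives, 1789 kept their direction and side of the threshold, 14 lost a call and 15 gained one. A further 72 changed sign without a call before or after, the largest reported value among them being Tyms in the KO interaction, at -0.54 and at 0.36 without KO replicate 1. No called value changed sign. The calls against naive cells held in wt and KI throughout. In wt at 48 h against 24 h, 2 calls became 1 without a low-count filter, 1 with the replicate block by mouse, 0 with the compared groups alone, and 0 to 4 when 1 mouse was left out; over all genes, calls went from 1587 to 1128, 1892, 350, and 134 to 1409. In KI at 48 h against 24 h, 1 call became 3 with DESeq2, 3 with limma, 3 with the compared groups alone, 2 with near-identical copies added (chosen after seeing the data), 0 with the replicate block by mouse, and 0 to 1 when 1 mouse was left out; over all genes, calls went from 567 to 1256, 653, 1362, 566, 810, and 0 to 157. In both, the replicate block by mouse ended the call (Psph in wt, adjusted p 0.0527; Psat1 in KI, adjusted p 0.0515), and the block by experiment changed no call. Leaving out 1 mouse gave 0 to 1 calls in KI against wt at 48 h, 0 to 4 in KO against wt at 48 h and 0 to 1 in the KO interaction. The highest of these went with 1290 (without wt replicate 3), 4765 and 1355 (both without KO replicate 5) calls over all genes, against 884, 6 and 0.

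With 1 mouse left out, mean log2 changes of the ratios at 24 h ran from -1.23 to -1.17 (Shmt2 to Shmt1), 0.42 to 0.59 (Mthfd2 to Mthfd1) and -0.56 to -0.48 (Mthfd1l to Mthfd1). At 48 h they ran from -1.04 to -0.72 for Shmt2 to Shmt1, from 1.44 to 1.83 for Mthfd2 to Mthfd1 and from -0.28 to -0.08 for Mthfd1l to Mthfd1. For the 5 changes that had passed, the adjusted p then reached 0.075, since the exact test over the 5 mice left at 24 h cannot pass and the adjustment covers both times.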
